A study of Sus scrofa with 4 samples.

Results

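The 10 Notch genes described here are the receptors NOTCH1, NOTCH2 and NOTCH3, the ligands DLL1, JAG1 and JAG2, the targets HES1, HEY1 and HEY2, and the receptor modifier LFNG. They were chosen by name, with earlier results of these data known, and all 10 were found among the 29837 named genes of the count table. Epidermal cells came from the skin of 2 juvenile pigs, 88R and 95R, and cell sorting for green fluorescent protein (GFP) gave an LGR5-high and an LGR5-negative population from each animal, so that each population is represented by 2 libraries. The pigs carried H2B-GFP, a GFP joined to a histone, knocked into exon 1 of one LGR5 allele, while the other allele still encoded LGR5. Both populations of a pig therefore shared the same genotype, and no library came from a pig without the reporter. The edited founder cells were clonal lines used for nuclear transfer. Since the histone fusion is passed on at division and diluted, the GFP-high gate can also take in recent descendants of LGR5 cells, and the intermediate, dim population was not analysed here. The libraries held between 30890232 and 32598670 counts.

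Notch receptors are membrane proteins that are cut when a Delta or Jagged ligand on a neighbouring cell pulls on them. The freed intracellular domain enters the nucleus, joins the DNA-binding protein RBPJ and switches on target genes, among them the HES and HEY repressors. In mammalian skin the pathway is known for driving basal keratinocytes toward suprabasal differentiation and for maintaining the lineages of the growing hair follicle.

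The sort was visible in the reporter's own gene. LGR5 had 132 and 188 CPM (read counts relative to library size, scaled by TMM so that the bulk of genes is aligned between libraries) in LGR5-high, against 1.26 and 3.61 CPM in the LGR5-negative libraries. The keratinocyte genes KRT5, TP63 and CDH1 were present in all 4 libraries and did not pass the test, whereas ITGA6 was lower in LGR5-high and KRT14 was not analysed here. Markers of suprabasal cells differed widely between the populations. Their summed level was between 5665 and 6251 CPM in LGR5-high and between 56394 and 65348 CPM in LGR5-negative. Of the 6 markers, 5 were lower in LGR5-high and IVL was not called, where 22% of all genes tested were lower. The part of this difference in the Notch values below was not tested. In bulk libraries, fewer cells of a type and less RNA per cell cannot be told apart.

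In LGR5-high cells the receptors NOTCH1 and NOTCH3 were moderately lower, the Delta ligand DLL1 was about 4-fold lower, and the targets HES1, HEY1 and HEY2 and the modifier LFNG were higher. All 10 members passed the low-count filter. By edgeR's quasi-likelihood test, with p-values adjusted by Benjamini-Hochberg over the 15980 genes tested and a threshold of 0.05, 4 members were called higher and 3 lower. HES1, HEY1, HEY2 and LFNG formed the first group and NOTCH1, NOTCH3 and DLL1 the second, while NOTCH2, JAG1 and JAG2 were not called. Among all genes tested, 22.7% were higher and 22% were lower by the same rule, so the share of members called exceeded the background in both directions. The members were chosen with earlier results of these data known, so the excess may come from that choice. With 10 genes no test of it was made. The median log2 fold change of the members was 0.11, beside 0.02 for all genes tested. Scaled by library size only, 5 were higher and 2 lower, where 34.2% and 14.6% of all genes were. With the pig added as a replicate block, 5 members were higher and 4 lower, against 28.5% and 27.2% of all genes. The CPM values of the populations did not overlap for any of the 10 members, with 5 above and 5 below, which for 2 libraries against 2 is common: it held for 39.2% of all tested genes above and 37.4% below. The plot of CPM by library shows the separation for each gene.

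**Figure D1:**
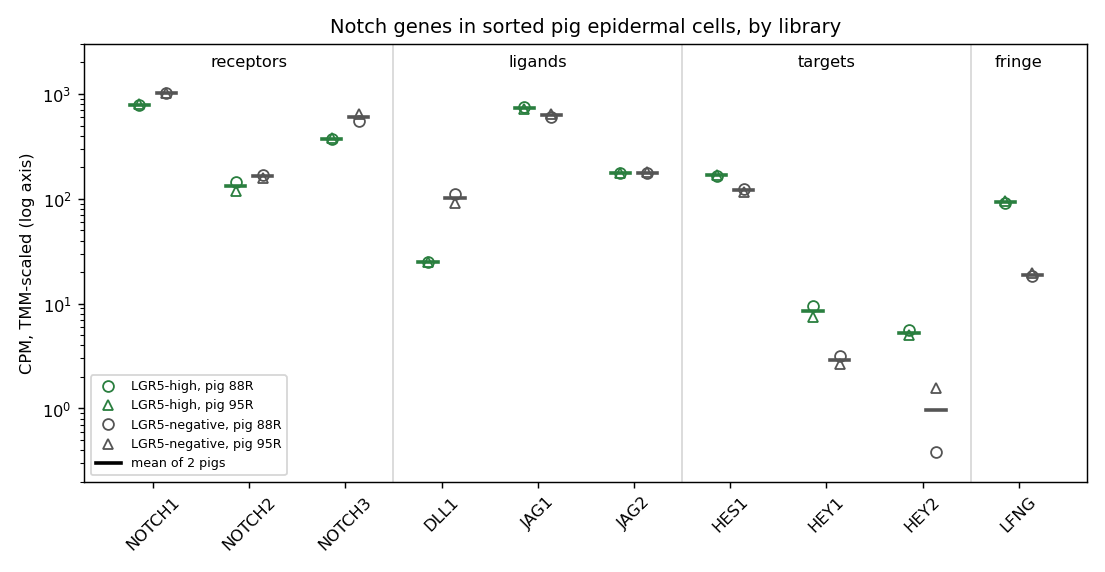
Level of each Notch gene in each library. The vertical log axis gives TMM-scaled CPM, circles are pig 88R, triangles are pig 95R, green is LGR5-high, grey is LGR5-negative, and bars are the mean of the 2 pigs. DLL1 and LFNG separate most widely among genes with tight pairs, and HEY2 has the widest gap between the 2 LGR5-negative libraries (0.386 and 1.56 CPM). Levels of different genes on this axis also depend on gene length.

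Of the receptors called, NOTCH3 had the larger difference. NOTCH3 had 369 and 383 CPM in LGR5-high (pigs 88R and 95R in that order, here and in what follows), and 551 and 646 CPM in the LGR5-negative libraries. Both LGR5-high values lay well below both LGR5-negative values, and the LGR5-negative libraries differed more from each other than the LGR5-high libraries did. The log2 fold change was -0.67 (± 0.103, standard error or SE, edgeR adjusted p = 0.00403), or 1.59-fold lower in LGR5-high, and the pigs taken singly gave -0.58 and -0.76. NOTCH3 is also a receptor of pericytes and vascular smooth muscle. Of the list of markers for those cells, 4 of 5 tested genes were higher in LGR5-high, where 22.7% of all genes tested were. The smooth muscle gene DES had at most 2 counts in any library. The summed level of that list was between 284 and 299 CPM in LGR5-high and between 116 and 122 CPM in LGR5-negative, and most of it came from CSPG4. Its other tested genes had between 0.351 and 5.51 CPM. The part of such cells in the NOTCH3 values was not tested.

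NOTCH1, the main receptor of the epidermis, had 781 and 798 CPM in LGR5-high and 1019 and 1031 CPM in LGR5-negative. The 2 pigs were nearly identical within each population. Its log2 fold change was -0.38 (± 0.0786 SE, edgeR adjusted p = 0.012), which is 1.30-fold lower, and the pigs taken singly gave -0.38 and -0.37. The call was lost on scaling by library size only (log2 fold change -0.15, adjusted p = 0.151). Under that scaling the median of all genes tested was 0.24, so that NOTCH1 still lay below the median gene. The NOTCH1 call was also lost without the LGR5-high library of pig 88R (-0.37, adjusted p = 0.0772) or without that of pig 95R (-0.39, adjusted p = 0.0700), where the size of the change was little altered.

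NOTCH2 had 144 and 120 CPM in LGR5-high and 170 and 158 CPM in LGR5-negative. Its populations did not overlap, but the gap between the LGR5-high libraries was of the same order as the gap between populations. Its log2 fold change was -0.31 (95% interval -0.59 to -0.04, edgeR adjusted p = 0.0636) and it was not called. It was called lower with the pig as a replicate block (-0.32, adjusted p = 0.00653), and also without the LGR5-high library of pig 88R (-0.46, adjusted p = 0.0389). NOTCH4, the receptor best known from endothelium, was scarce at 2.56 and 3.21 CPM in LGR5-high and 1.54 and 2.02 CPM in LGR5-negative. Its log2 fold change of 0.69 was not called (adjusted p = 0.1), and with the replicate block it was called higher (adjusted p = 0.0423).

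Each library also holds its own internal comparison, which no scaling between libraries can move. Per 100 counts of NOTCH1, the LGR5-high libraries had 47.3 and 47.9 counts of NOTCH3 and the LGR5-negative libraries had 54.1 and 62.7. The ratio was smaller in LGR5-high in both pigs, although the gap was close to the spread within LGR5-negative. For NOTCH2 the ratios overlapped, with 18.4 and 15.03 per 100 in LGR5-high and 16.7 and 15.4 in LGR5-negative. These ratios compare a gene pair between libraries and say nothing of which receptor is more abundant, since transcript lengths differ.

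Among the ligands, DLL1 and the Jagged genes behaved differently. DLL1, a Delta ligand associated with basal keratinocytes, had 24.7 and 24.9 CPM in LGR5-high and 111 and 91.2 CPM in the LGR5-negative libraries. The LGR5-high values were nearly equal and far below both LGR5-negative values. DLL1 was 4.08-fold lower in LGR5-high, a log2 fold change of -2.03 (± 0.121 SE, edgeR adjusted p = 1.71e-04), and the pigs taken singly gave -2.17 and -1.87. By p-value DLL1 ranked 166 among all genes lower in LGR5-high, and 12.4% of the genes tested had a larger absolute change. Leaving out each library in turn kept its log2 fold change between -2.17 and -1.89.

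JAG1, a Jagged ligand of follicle and epidermis, had 755 and 715 CPM in LGR5-high and 598 and 650 CPM in LGR5-negative. Its LGR5-high values lay above the LGR5-negative ones, and in pig 95R the margin was small. The log2 fold change was 0.24 (95% interval 0.02 to 0.45, edgeR adjusted p = 0.0729), and the pigs taken singly gave 0.34 and 0.14. JAG1 was not called, but it was called higher with the replicate block (0.24, adjusted p = 0.0335), with upper quartile scaling (0.33, adjusted p = 0.0256) and with library size only (0.46, adjusted p = 0.00847). JAG2, the second Jagged ligand, had 176 and 175 CPM in LGR5-high against 177 and 179 CPM in LGR5-negative, and was the member with the smallest difference. Its log2 fold change was -0.02, with a 95% interval from -0.20 to 0.16 (edgeR adjusted p = 0.836), so that changes beyond 1.12-fold upward or a level below 0.87 of that in LGR5-negative lie outside the interval. The sign of the JAG2 difference turned with upper quartile scaling (0.07), with library size only (0.20) and on the stricter filter of 10 counts per library (0.01).

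The ligands were also set against each other within each library. Per 100 counts of JAG1, DLL1 reached 3.27 and 3.48 in LGR5-high and 18.6 and 14.04 in LGR5-negative, a mean ratio 4.84 times larger in LGR5-negative. JAG2 had 23.3 and 24.4 counts per 100 of JAG1 in LGR5-high and 29.5 and 27.5 in LGR5-negative, a much smaller gap. The ratio of JAG1 to NOTCH1 went the other way, with 96.7 and 89.6 counts per 100 of NOTCH1 in LGR5-high and 58.7 and 63.0 in LGR5-negative. No ratio of these 3 pairs overlapped between the populations, and none was tested. For CPM of single genes such separation held for 39.2% of all tested genes above and 37.4% below. The share among ratios was not computed.

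**Figure D2:**
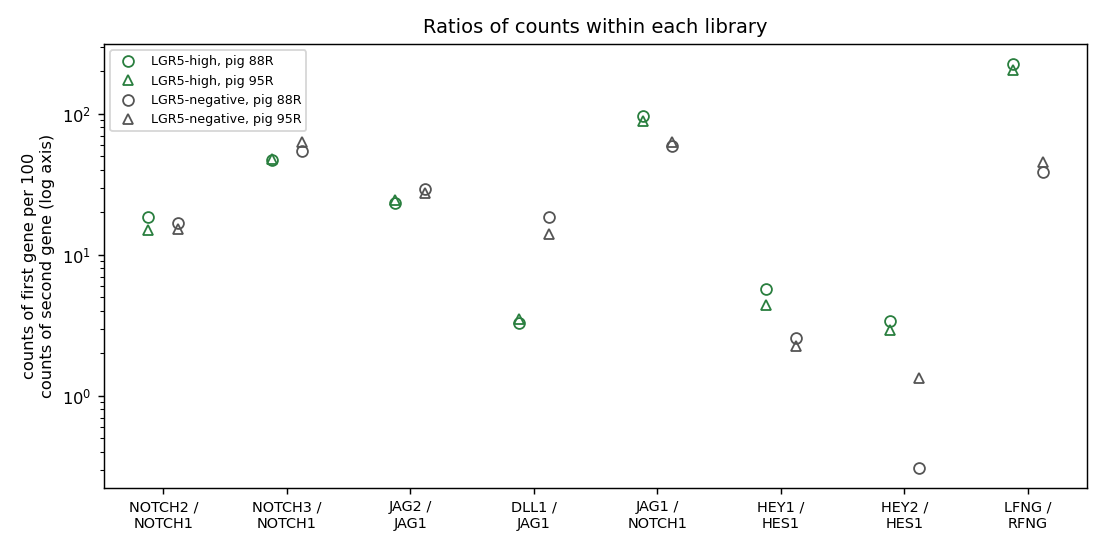
Counts of one Notch gene per 100 counts of another in the same library, on a log axis, with LGR5-high in green, LGR5-negative in grey, pig 88R as circles and pig 95R as triangles. The ratio of DLL1 to JAG1 is lower and that of LFNG to RFNG is higher in both LGR5-high libraries, and the ratio of NOTCH2 to NOTCH1 overlaps between the populations.

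All 3 target genes were called higher in LGR5-high (all genes tested 22.7%), by amounts that differed with the gene. HES1, the widely expressed bHLH repressor downstream of Notch, had 165 and 170 CPM in LGR5-high and 125 and 117 CPM in LGR5-negative. Its populations were well separated beside the spread between pigs. HES1 had a log2 fold change of 0.47 (± 0.0788 SE, edgeR adjusted p = 0.00551), or 1.39-fold, and the pigs taken singly gave 0.40 and 0.54. HES1 is also known to respond to signals other than Notch.

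HEY1 encodes a related bHLH repressor. It had 9.45 and 7.48 CPM in LGR5-high and 3.19 and 2.65 CPM in LGR5-negative, from 325, 247, 91 and 80 counts. Both LGR5-high values were more than any LGR5-negative value by a wide margin. The gene was 2.90-fold higher, with a log2 fold change of 1.54 (± 0.225 SE, edgeR adjusted p = 0.00344), and with 1.55 and 1.48 in pigs 88R and 95R the animals were close.

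HEY2, the paralog of HEY1, had the fewest counts of the 10 members in LGR5-negative and the widest interval. HEY2 had counts of 191 and 165 (5.56 and 4.99 CPM) in LGR5-high, and 11 and 47 counts (0.386 and 1.56 CPM) in LGR5-negative. The exact 95% Poisson intervals of the LGR5-negative counts, which cover counting error only, were 5.49 to 19.7 for pig 88R and 34.5 to 62.5 for pig 95R, so those libraries differed beyond counting noise. The log2 fold change was 2.43 (95% interval 1.03 to 3.82, edgeR adjusted p = 0.0173), and the pigs taken singly gave 3.64 and 1.64. Its size rested on the LGR5-negative libraries: it was 3.75 without that of pig 95R and 1.75 without that of pig 88R, and the call held in both. Without the LGR5-high library of pig 88R the adjusted p was 0.066 and without that of pig 95R it was 0.0627, so the call was lost. The intervals of HEY1 and HEY2 overlap, and a difference between these genes in the size of the increase was not tested.

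Markers of endothelium, where HEY1 and HEY2 are well known, were read beside these targets. None of the 6 endothelial markers tested was higher in LGR5-high and 4 were lower (all genes tested 22.7% and 22%). Among the lower ones was CDH5, which had 1 count in each LGR5-high library. The summed endothelial level was between 6.46 and 7.66 CPM in LGR5-high and between 21.6 and 21.8 CPM in LGR5-negative. The pericyte list was higher in LGR5-high, as given above for NOTCH3, and its part in the HEY1 and HEY2 values was not tested. Of the hair matrix and inner root sheath markers, TCHH, KRT25 and LEF1 were higher, GATA3 and KRT35 lower and MSX2 not called. Melanocyte markers summed to 61.9 CPM in both LGR5-high libraries and to between 82.7 and 256 CPM in LGR5-negative, immune markers to between 13.99 and 14.3 CPM against 87.9 to 127 CPM, and nerve and Schwann markers to between 58.9 and 78.9 CPM against 5.44 to 10.8 CPM, the last mostly from NGFR. Single genes went against these sums, since the immune marker AIF1 was 4.44-fold higher and the nerve and melanocyte lineage gene SOX10 was 6.45-fold lower in LGR5-high. Fibroblast and dermal papilla markers summed to between 735 and 915 CPM in LGR5-high and between 342 and 614 CPM in LGR5-negative, with 2 genes higher (COL1A1 and THY1) and 4 lower. The part of these lists in the Notch values was not tested.

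LFNG encodes Lunatic fringe, a Golgi glycosyltransferase that extends O-fucose on the EGF repeats of Notch receptors and is known to favour activation by Delta over Jagged ligands. LFNG had 90.6 and 96.3 CPM in LGR5-high and 18.4 and 19.4 CPM in the LGR5-negative libraries. The pigs were close to each other in both populations, and the populations were far apart. LFNG was 4.94-fold higher in LGR5-high, a log2 fold change of 2.30 (± 0.0932 SE, edgeR adjusted p = 6.65e-05), and the pigs taken singly gave 2.29 and 2.31. By p-value it ranked 77 among all genes higher in LGR5-high, and 10.1% of the genes tested had a larger absolute change. LFNG was the only member called under each of the 13 alternative settings, with an adjusted p between 2.90e-67 and 0.0377.

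The other fringe genes, singled out here after their values were seen, were not called. RFNG, or Radical fringe, had 40.3 and 47.0 CPM in LGR5-high and 47.8 and 42.8 CPM in LGR5-negative. These values overlap, and the log2 fold change was -0.05 (95% interval -0.35 to 0.24, edgeR adjusted p = 0.735). MFNG, or Manic fringe, was near 1 CPM, with 0.873 and 0.908 CPM in LGR5-high and 1.47 and 1.49 CPM in LGR5-negative (log2 fold change -0.73, adjusted p = 0.0998), and was called lower by the t-test on log2 CPM only (adjusted p = 0.043). LFNG had 225 and 205 counts per 100 counts of RFNG in LGR5-high and 38.5 and 45.3 in LGR5-negative.

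**Figure D3:**
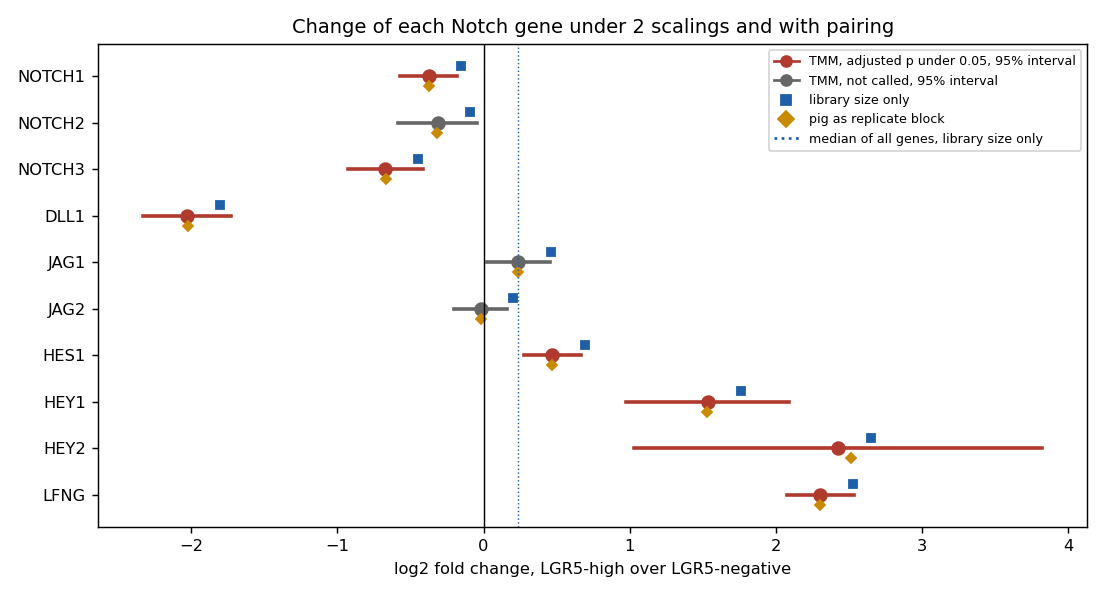
Log2 fold change of each Notch gene, LGR5-high over LGR5-negative, on the horizontal axis. Circles with bars are the estimate and its 95% interval with TMM scaling, red where the adjusted p is under 0.05; squares are the estimates with library size only, diamonds those with the pig as a replicate block, and the dotted line is the median of all genes with library size only (0.24). The squares are shifted to the right by a similar amount for every gene, which carries JAG2 across 0 and leaves DLL1, the targets and LFNG on their sides.

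Around these 10 genes, a list of 55 further pathway genes was examined, of which 54 passed the filter. DLK1, with 1 count in all, did not. Of the 54 genes, 13 were higher and 13 lower in LGR5-high, and 28 were not called. The shares were close to those of all genes (22.7% higher and 22% lower), and the median log2 fold change was 0.01. With the pig as a replicate block, 18 were higher, 17 lower and 19 not called, and NOTCH4, DLL3, PSEN2, NCSTN and HES2 were added to the higher genes and POGLUT1, EP300, SPEN and NRARP to the lower ones. With library size only, 19 were higher and 8 lower, where 34.2% and 14.6% of all genes were. Fewer genes were called when a library was left out, among these genes as among all genes. There were 7 higher without the LGR5-high library of pig 88R (all genes 14.2%), 8 higher and 6 lower without that of pig 95R (all genes 13.9% and 13%), and 8 higher without the LGR5-negative library of pig 95R (all genes 19.1%).

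Among the further receptors and ligands, the EGF-repeat proteins DNER and DLK2 went in opposite directions. DNER, a transmembrane protein described as a noncanonical Notch ligand, had 16.1 and 8.02 CPM in LGR5-high and 0.526 and 0.563 CPM in LGR5-negative. The pigs differed widely within LGR5-high, but both values were far above LGR5-negative. Its log2 fold change was 4.46 (± 0.435 SE, edgeR adjusted p = 7.94e-04). DLK2, a Delta-like protein reported to modulate Notch, had 23.3 and 22.1 CPM in LGR5-high and 117 and 114 CPM in LGR5-negative. DLK2 was 5.08-fold lower (log2 fold change -2.35, standard error 0.0853, adjusted p = 6.16e-05). Its levels lay near those of DLL1, but DLK2 was not among the nearest genes of DLL1 given below. The endothelial Delta ligand DLL4 was near 1 CPM in every library (log2 fold change 0.43, adjusted p = 0.312).

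Of the 9 genes for receptor cleavage, 3 were higher, 3 lower and 3 not called, where 22.7% of all genes were higher and 22% lower. APH1B, a subunit of the gamma-secretase that makes the final cut, had the largest increase among them, from 5.69 to 10.6 mean CPM (log2 fold change 0.90, adjusted p = 0.0188), and lost its call without either LGR5-high library (adjusted p = 0.0754 without pig 88R and 0.0803 without pig 95R). ADAM17, a sheddase of Notch receptors, had the largest decrease, from 60.7 mean CPM in LGR5-negative to 41.4 in LGR5-high (log2 fold change -0.55, adjusted p = 0.00407). Among the 5 glycosyltransferases other than LFNG, EOGT, which adds GlcNAc to EGF repeats, was lower (log2 fold change -0.66, adjusted p = 0.00361), and 4 were not called.

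Of the 13 endocytosis and ubiquitin genes, 4 were higher and 5 lower, where 22.7% and 22% of all genes were. NUMB, an adaptor that antagonises Notch, rose from 74.0 mean CPM in LGR5-negative to 119 in LGR5-high (log2 fold change 0.69, edgeR adjusted p = 0.00149). Its paralog NUMBL, named after its values were seen, was lower (log2 fold change -1.17, adjusted p = 0.00847), though not called without the LGR5-high library of pig 95R (adjusted p = 0.0546). DTX1, a Deltex ubiquitin ligase and itself a target of Notch in other tissues, had 9 and 9 counts in LGR5-high and 55 and 46 counts in LGR5-negative (log2 fold change -2.67, standard error 0.375, adjusted p = 0.00293). NEURL1B, a ligase for the endocytosis of Delta ligands, was also named after its values were seen. It had 31.4 and 26.6 CPM in LGR5-high and 129 and 98.1 CPM in LGR5-negative (log2 fold change -1.97, adjusted p = 4.42e-04).

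In the nuclear complex the differences were small. Of its 9 genes 1 was higher and 1 lower, and of the 6 corepressors 1 was higher and 2 were lower. Among all genes tested 22.7% were higher and 22% lower. RBPJ, the DNA-binding partner of the Notch intracellular domain, had 47.9 and 46.0 CPM in LGR5-high and 37.0 and 39.4 CPM in LGR5-negative. Its log2 fold change of 0.30 (± 0.0933 SE, edgeR adjusted p = 0.0455) was close to the threshold. The call was lost by DESeq2 (adjusted p = 0.0689). It was also lost without any one of the 4 libraries, where the log2 fold change lay between 0.24 and 0.34. CREBBP, a histone acetyltransferase recruited to the complex, was lower (log2 fold change -0.50, adjusted p = 0.00585), and the other 7 genes of the complex, the MAML coactivators among them, were not called. Of the 6 corepressors, CIR1 was higher (0.38, adjusted p = 0.0492) and HDAC1 was lower (-0.32, adjusted p = 0.0282), along with NCOR1, named after its value was seen, which lost its call without any one of the 4 libraries. CIR1 lost its call without the LGR5-high library of pig 95R (adjusted p = 0.223) or either LGR5-negative library (0.11 without pig 88R and 0.1246 without pig 95R), and HDAC1 without either LGR5-high library (0.1255 without pig 88R and 0.0848 without pig 95R) or the LGR5-negative library of pig 88R (0.13).

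Of the 7 further targets, 3 were higher and none was lower, while 4 were not called (all genes tested 22.7% higher and 22% lower). With the pig as a replicate block 4 were higher, 1 was lower and 2 were not called (all genes 28.5% and 27.2%). DTX1, a target of Notch in other tissues given above with the ubiquitin genes, was lower. HEYL, the third HEY gene, had 16.2 and 14.6 CPM in LGR5-high and 2.0 and 2.18 CPM in LGR5-negative. Its pairs were tight and far apart, with a log2 fold change of 2.88 (± 0.176 SE, edgeR adjusted p = 1.85e-04), so that all 3 HEY genes were higher in LGR5-high. HES6, which is known to oppose HES1, and HES7, known from the somite clock, were higher too and were named after their values were seen. HES6 had a log2 fold change of 1.47 (adjusted p = 8.87e-04), and HES7, at about 1 CPM in LGR5-high, one of 2.83 (adjusted p = 0.00976), which lost its call without either LGR5-high library (adjusted p = 0.0535 without pig 88R and 0.0642 without pig 95R). HES5 had 21 and 5 counts in LGR5-high and 3 and 11 counts in LGR5-negative. The values overlap, the pigs gave log2 ratios of 2.0 and -0.99, and HES5 was not called (adjusted p = 0.55).

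NRARP, a Notch target that dampens the signal, did not follow the HEY genes. It had 225 and 192 CPM in LGR5-high and 377 and 226 CPM in LGR5-negative, higher in pig 88R in both populations. The log2 fold change of -0.53 was not called (edgeR adjusted p = 0.12). NRARP was called lower with the replicate block (-0.49, edgeR adjusted p = 8.51e-04) and by DESeq2 with or without that block. Without the LGR5-negative library of pig 95R the log2 fold change was -0.87, and without that of pig 88R it was -0.13.

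**Figure D4:**
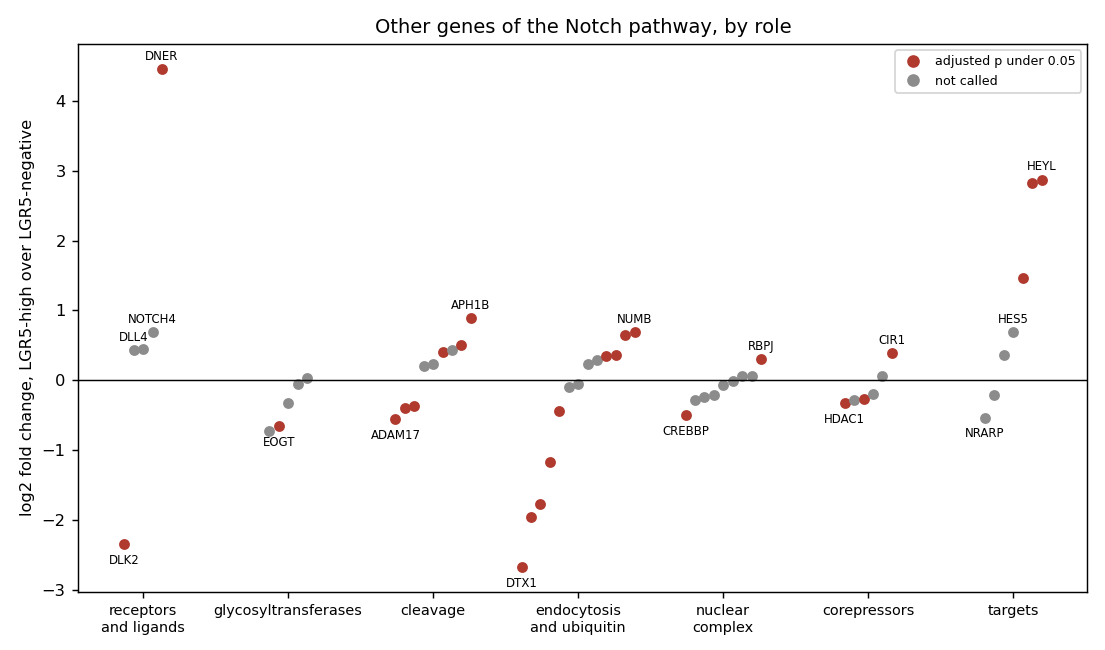
Log2 fold change, LGR5-high over LGR5-negative, of the 54 further Notch pathway genes tested, grouped by role along the horizontal axis, each point a gene, red where the adjusted p is under 0.05 and grey where it is not. Large differences appear among the ligands (DNER and DLK2), the ubiquitin genes (DTX1) and the targets (HEYL), whereas the nuclear complex stays within 0.50 of 0.

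A short list of keratinocyte genes that have been tied to Notch signalling was read beside the members. Of its 6 genes reported here none was higher in LGR5-high, 4 were lower and 2 were not called. Their median log2 fold change was -1.50. Among all genes tested 22.7% were higher and 22% lower, with a median of 0.02, and no test of the list was made. CDKN1A, a cell cycle inhibitor, had 224 and 234 CPM in LGR5-high and 548 and 501 CPM in LGR5-negative (log2 fold change -1.20, edgeR adjusted p = 2.94e-04). MYC had a log2 fold change of -1.80 (adjusted p = 2.67e-04), and the suprabasal keratins KRT1 and KRT10 had -3.56 and -3.44 (adjusted p = 6.71e-05 and 6.62e-05). TP63, the master factor of basal cells (-0.17, adjusted p = 0.135), and IVL (-0.16, adjusted p = 0.78) were not called. KRT1, KRT10 and IVL are also among the suprabasal markers given above, and TP63 is among the basal ones. The median of this list is thus not independent of those markers. Reads shared between keratin genes may have been split in counting.

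Genes with the nearest levels over the 4 libraries were found for the called members at the extremes, by Euclidean distance of log2 CPM. For DLL1 these were ELOVL4, CKMT1A and P2RY1, at distances of 0.109, 0.232 and 0.241. ELOVL4, an elongase for very long fatty acids, had 23.7 and 24.9 CPM in LGR5-high and 105 and 89.1 CPM in LGR5-negative. For HEY2 the nearest were PCDH20, LOC100737186 and TOP1MT, at 0.355, 0.523 and 0.565. PCDH20, a protocadherin, shared the low value in the LGR5-negative library of pig 88R, with 4.80 and 5.54 CPM in LGR5-high and 0.316 and 1.52 CPM in LGR5-negative.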

How the data were processed

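Poly(A) RNA of sorted LGR5-high and LGR5-negative epidermal cells of 2 pigs was sequenced from both fragment ends. The file the authors deposited holds unnormalized counts by gene symbol in 4 libraries; per the labels, reads were trimmed with Trimmomatic 0.36, aligned with STAR 2.5.2b and counted with featureCounts of Subread 1.5.2. The genome build, annotation, strand setting and treatment of multiply mapped reads are not given in the sources used here, so reads of overlapping genes cannot be told apart. All 4 count columns were used. An entry without a name, with between 0.36% and 0.626% of the counts, was left out. All 10 members matched a protein-coding RefSeq gene by symbol, used for names only.

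Counts were analysed in R 4.3.3 with edgeR 4.0.16: filterByExpr (minimum count 10, minimum total 15), TMM scaling, and a 2-sided quasi-likelihood test of the population term without a block, Benjamini-Hochberg adjustment over 15980 genes and a threshold of 0.05. Intervals of fold changes are 95% intervals of the same fit. CPM values are TMM-scaled, and log2 ratios within a pig used a prior count of 2. A gene with 3 counts had between 0.0873 and 0.105 CPM; floors and Poisson intervals cover counting error only. Replicates of a population differed beyond counting noise (chi-square per degree of freedom 20.3 and 23.1), and with 1 library per pig and population the p-values rest on 2 animals. Libraries of the same number came from the same pig, and the correlation of their deviations, each from its population mean, was 0.370 across genes, which is the check of the pairing.

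Alternatives were library size only, upper quartile scaling or DESeq2's size factors, no filter beyond 1 count or only genes with at least 10 in every library, the pig as a replicate block, DESeq2 1.42.0 with and without that block, a Student's t-test (the study's named test) of log2(CPM + 1) and leaving out each library. The tests were also run on simulated counts. Their dispersion was set below that of the main fit (0.0223) and no pairing was simulated, so that run does not give the error rate in these data. Members and lists were chosen with earlier results of these data known. The named genes are the members, the gene of largest called increase and decrease in each role of the further pathway list, RBPJ, NRARP, NOTCH4, DLL4, HES5 and HEYL, the keratinocyte and marker lists, and the 3 genes nearest to the extreme called members. RFNG, MFNG, NUMBL, NEURL1B, HES6, HES7, NCOR1 and the genes whose call the block changed were added after their values were seen. Markers KRT14, KRT71, KRT85 and CD1A were not analysed here, and 1 gene of the keratinocyte list is not reported here. With 2 libraries per population an exact permutation test cannot reach the threshold, and none was made. Plots used matplotlib 3.10.9.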

Additional observations from a re-analysis of the deposited data

How the results depend on the processing

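The changes of the 10 Notch genes were recomputed under 13 alternatives, 130 values in all. Of these, 111 kept direction and call, 10 lost a call, 6 gained one and 3 turned sign. The 3 that turned were JAG2, with 0.0743 under upper quartile scaling, 0.20 with library size only and 0.00979 where every library had to hold 10 counts. A Student's t-test of log2(CPM + 1), the kind of test the study names, called 1 member higher and 1 lower, against 4 and 3 with edgeR. The study's own processing was not repeated. By this t-test 6 members had an unadjusted p under 0.05. Of the further pathway genes it called 1 higher and 3 lower, against 13 and 13 with edgeR, and of all genes 3.4% higher and 3.14% lower. For the further pathway genes, library size only gave 19 higher and 8 lower (all genes 34.2% and 14.6%), and leaving out each library gave between 7 and 9 higher and between 6 and 12 lower (all genes 13.9% to 19.1% and 13% to 18.1%), with 7 higher without the LGR5-high library of pig 88R and 6 lower without that of pig 95R. The cause was not tested. The pig as a replicate block, with the pairing check of 0.370, gave 5 and 4 members and changed the calls of NOTCH2 and JAG1 and of no other member. Of the further pathway genes it gave 18 higher and 17 lower. NOTCH2 and JAG1 lay near the threshold. Libraries of the same population differed beyond counting error across genes in general, among them HEY2 in LGR5-negative and HES5 and DNER in LGR5-high.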
